A study of Homo sapiens with 15 samples.

Results

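Mature miRNAs were counted in 3 clones of a human embryonic kidney cell line after transfection with FTO siRNA and, in the same clones, after transfection with scrambled siRNA. These are 6 of the 15 libraries of the series, and all 2418 mature miRNA entries counted in them are described here. The cells were uninduced Flp-In 293 T-Rex derivatives named FTO1C1, FTO2D4 and FTO3C3, which are HEK293 cells built to carry an inducible transgene, with each derivative grown from its own clone. All 6 cultures received 10 nM siRNA with a lipofectamine reagent, and RNA was taken after 48 h. The FTO siRNA came from a kit of 3 siRNAs against FTO mRNA, and the scrambled siRNA was its non-targeting control. Each clone gave 1 library per group, so that n = 3 clones and the spread is that between clones. Libraries of small RNA do not measure the FTO transcript, so the knockdown itself is not checked here. The paper reports a partial knockdown in these clones, measured by qRT-PCR and Western blot.

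FTO is a demethylase that removes the methyl group from N6-methyladenosine (m6A), a common internal modification of RNA. A miRNA gene is transcribed as a long primary transcript, from which Drosha with DGCR8 cuts a hairpin, and Dicer cuts the hairpin into a 5p and a 3p arm. One arm, the guide strand, is usually kept in an Argonaute protein and the other, the passenger strand, is usually lost, and the guide strand recognises mRNAs mainly through its seed, bases 2 to 8. m6A in primary transcripts is known to be bound by proteins that help Drosha find the hairpin, and the comparison asks whether the amount of single miRNAs in these cells changes when FTO is lowered.

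The mature sequences below are those of the miRNAs with the largest changes, with the seed in capitals, as RefSeq lists them on GRCh38.p14. RefSeq holds a sequence for 2130 of the 2418 entries and for 117 of the 130 miRNAs that passed the test described next. The 6 with the largest increases were these.
miR-6505-5p: uUGGAAUAggggauaucucagc
miR-651-5p: uUUAGGAUaagcuugacuuuug
miR-493-5p: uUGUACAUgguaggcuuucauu
miR-6739-3p: aUUGUUCUgucuuucucccag
miR-5583-3p: gAAUAUGGguauauuaguuugg
miR-221-3p: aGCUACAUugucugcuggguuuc
The 12 that passed the test as lower were these, in the order of their change.
miR-22-3p: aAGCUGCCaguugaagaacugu
miR-7-5p: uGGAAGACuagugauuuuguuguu
miR-196a-5p: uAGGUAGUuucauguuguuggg
miR-769-5p: uGAGACCUcuggguucugagcu
miR-92a-1-5p: aGGUUGGGaucgguugcaaugcu
miR-671-5p: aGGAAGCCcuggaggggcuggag
miR-27b-3p: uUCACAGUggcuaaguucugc
miR-215-5p: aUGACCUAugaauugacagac
miR-1180-3p: uUUCCGGCucgcgugggugugu
miR-28-3p: cACUAGAUugugagcuccugga
miR-25-3p: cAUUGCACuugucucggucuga
miR-16-5p: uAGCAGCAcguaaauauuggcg

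No seed occurs more than once in this list. Over all calls with a RefSeq sequence, the 105 miRNAs called higher carried 102 different seeds and the 12 called lower carried 12, and 0 seeds had calls in both directions. Most tested miRNAs have a seed of their own, with 1758 seeds among 2092 tested miRNAs and 246 seeds shared. The counts are thus not a trait of the called miRNAs. miR-22-3p lies at chr17:1713914-1713935 on the minus strand, within the bounds of the non-coding host gene MIR22HG. miR-6505-5p lies at chr12:48132800-48132821 on the plus strand within PFKM, the gene of muscle phosphofructokinase, and miR-651-5p at chrX:8126980-8127001 on the plus strand within a non-coding gene. miR-221-3p lies at chrX:45746180-45746202 on the minus strand within MIR222HG. For miR-7-5p, miR-196a-5p and miR-16-5p at least 2 RefSeq loci each were matched by name, so their reads cannot be assigned to a single gene. Exons and introns are not given by the gene table used here.

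Counts are given as reads per 1000000 miRNA reads of the library (RPM), and log2 fold changes are of FTO siRNA over scrambled siRNA. Reads on miRNAs numbered between 1991317 and 3876806 per library. miR-10a-5p alone took between 22.12% and 30.63% of them. The reads carry no molecular identifiers, and close relatives can hold each other's reads. edgeR's quasi-likelihood test with the clone as a block was run on the 2374 miRNAs that passed its filter on low counts, and 44 entries were not tested. At an adjusted p under 0.05, 118 miRNAs (4.97%) were called higher and 12 (0.505%) were called lower. The scale decides this balance, because over the 2374 miRNAs the log2 fold change had a median of 0.29, which TMM factors moved to -0.000348. With TMM factors 21 miRNAs were called higher and 34 lower. All 118 and all 12 kept their direction under TMM factors, and the 12 called lower were called lower there too. Without clone FTO1C1, with 2 pairs left, 0 miRNAs passed by edgeR and 327 had an unadjusted p under 0.05. The calls were 87 higher and 39 lower without FTO2D4, and 191 higher and 10 lower without FTO3C3.

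**Figure D1:**
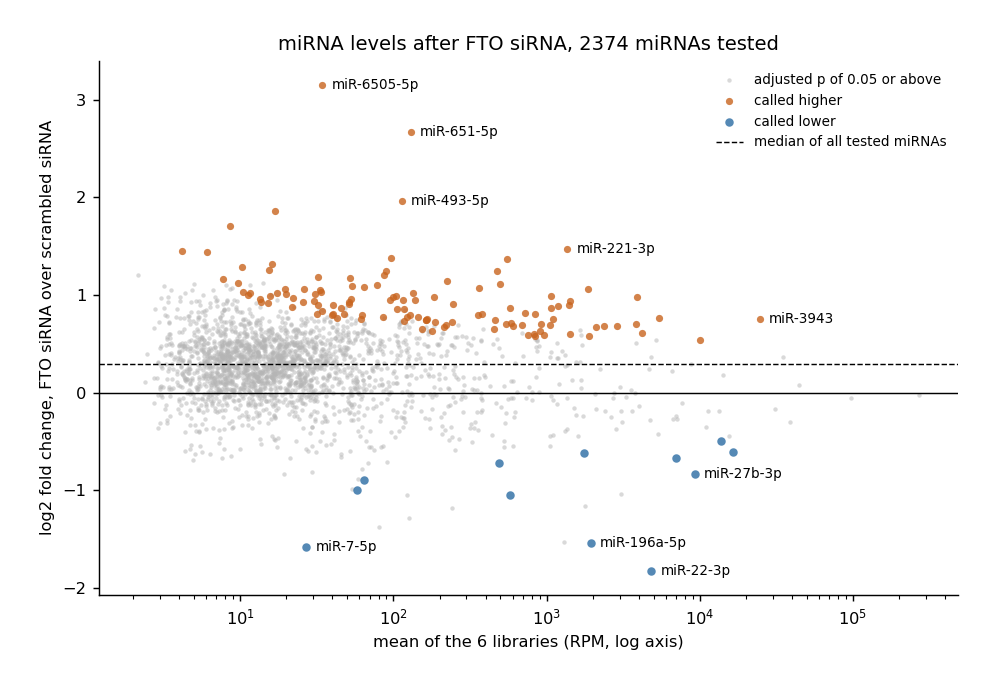
Log2 fold change of FTO siRNA over scrambled siRNA (vertical axis) against the mean level of the 6 libraries in RPM (horizontal, log axis) for the 2374 miRNAs tested by edgeR, 1 point per miRNA, with calls at an adjusted p under 0.05 coloured. The cloud is centred on the dashed line at 0.29 and not on 0, and the 12 miRNAs called lower lie between 27 and 16393 RPM, 9 of them above the median of 121 RPM of those called higher.

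The miRNAs called lower ranged from 27 RPM (miR-7-5p) to 16393 RPM (miR-25-3p), and 7 of the 12 had at least 1000 RPM. Of all 100 tested miRNAs at that level, 7 (7%) were called lower and 20 (20%) higher. Calls of higher also became more frequent with level, from 0.565% under 5 RPM to 17.1% between 100 and 1000 RPM. The median level of the 12 was 1845 RPM, against 121 RPM for those called higher and 16.2 RPM for the 2244 without a call. In 10 of the 12 the FTO siRNA libraries were all below the scrambled siRNA libraries, against 1.94% of all tested miRNAs that showed this. All 12 were below their own control in each clone, as were 5.18% of all tested miRNAs. In the order FTO1C1, FTO2D4, FTO3C3, which holds for all triplets of values here, the 12 together took 6.90%, 6.90% and 7.30% of the control reads and 4.28%, 3.92% and 4.35% of the reads after FTO siRNA. The 118 called higher went from 6.64%, 7.54% and 6.60% to 12.4%, 12.4% and 10.4%. Both shares changed in the same direction in every clone, and this follows from the call.

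**Figure D2:**
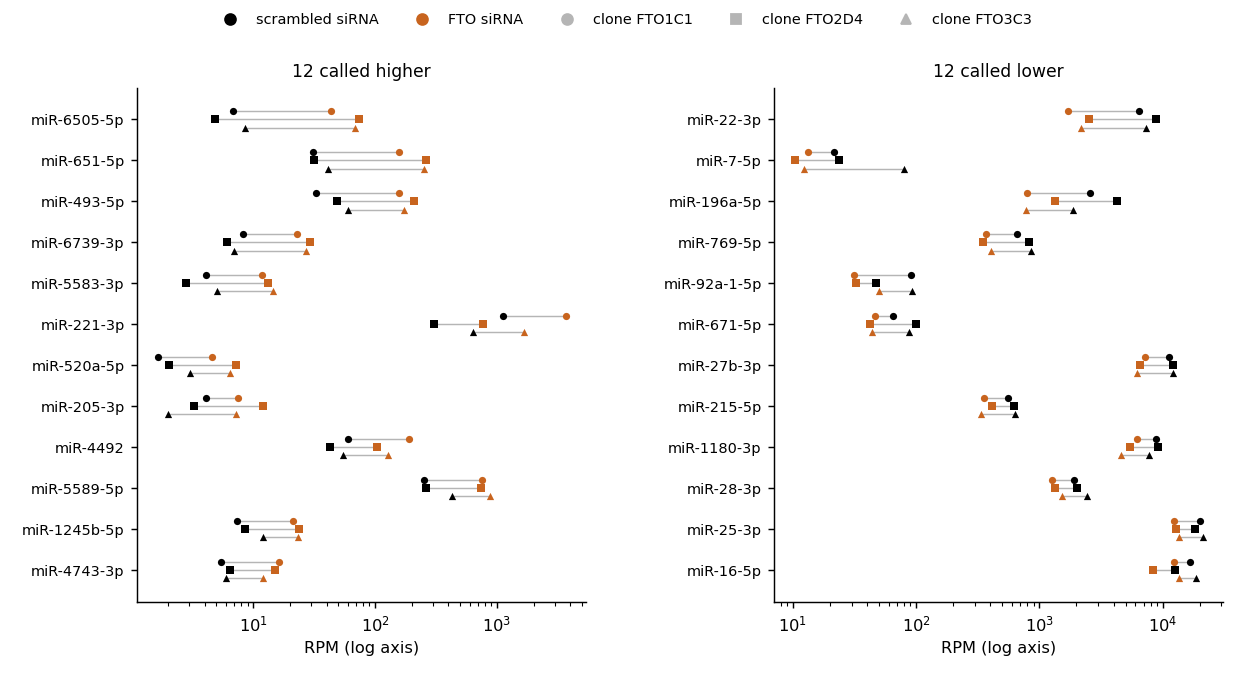
RPM (log axis) of the 12 miRNAs with the largest increases (left) and of the 12 called lower (right), with scrambled siRNA in black, FTO siRNA in orange and 1 symbol per clone joined by a line. Every line runs to the right on the left panel and to the left on the right panel, and for miR-221-3p the clones differ from each other more than the groups do.

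miR-22-3p, a broadly expressed miRNA encoded in a non-coding RNA gene, had 6489, 8808 and 7294 RPM with scrambled siRNA and 1719, 2507 and 2187 RPM with FTO siRNA. The groups did not overlap, and the ratio within a clone stayed between 0.265 and 0.300. Its log2 fold change was -1.82 (SE 0.13, adjusted p = 0.000138 by edgeR), or -2.11 with TMM factors. In the untreated cells of the same clones, sequenced in a separate table whose scale differs, miR-22-3p had a mean of 13279 RPM. Among the other miRNAs called lower, the untreated mean lay between the group means for miR-7-5p, miR-1180-3p and miR-25-3p. For the rest it lay below both group means, as for miR-196a-5p (389 RPM, against 978 with FTO siRNA) and miR-27b-3p (5372 against 6672). The untreated values thus do not serve as a control here.

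miR-196a-5p, encoded within the HOX gene clusters and known to repress HOX mRNAs, went from 2589, 4251 and 1890 RPM to 799, 1350 and 785 RPM. Its groups did not overlap (log2 fold change -1.54, SE 0.15, adjusted p = 0.000704 by edgeR). miR-769-5p went from 664.1, 830 and 852 RPM to 370, 349 and 409.4 RPM, without overlap (log2 fold change -1.05, SE 0.15, adjusted p = 0.00696 by edgeR).

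miR-7-5p and miR-671-5p are both known to pair with the circular RNA CDR1as, which carries many sites for miR-7 and is cut at a site for miR-671. miR-7-5p had 21.7, 23.9 and 80.3 RPM with scrambled siRNA and 13.2, 10.4 and 12.4 RPM with FTO siRNA. The control value of FTO3C3 stood above the other two. The mean level of miR-7-5p in the untreated cells, on their differing scale, was 26.7 RPM. The log2 fold change of -1.58 (SE 0.34, adjusted p = 0.0323 by edgeR) was -0.94 without FTO3C3, the only call whose fold moved by more than 1.5 times when a clone was left out. miR-671-5p went from 64.9, 99.4 and 87.4 RPM to 46.8, 42.2 and 44.1 RPM, without overlap (log2 fold change -0.90, SE 0.21, adjusted p = 0.0366 by edgeR).

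miR-27b-3p, which is known to repress the adipocyte regulator PPARG, went from 11226, 12215 and 12177 RPM to 7225, 6556 and 6233 RPM, with no overlap (log2 fold change -0.83, SE 0.13, adjusted p = 0.00976 by edgeR). miR-25-3p, the most abundant miRNA called lower, is encoded in the miR-106b-25 cluster within MCM7. It went from 19979, 18369 and 21103 RPM to 12399, 12828 and 13681 RPM, with no overlap (log2 fold change -0.61, SE 0.12, adjusted p = 0.0246 by edgeR). miR-16-5p, a repressor of cyclins and BCL2, had 16681, 12561 and 18653 RPM and then 12301, 8371 and 13696 RPM. Its groups overlapped although each clone went down (log2 fold change -0.49, SE 0.12, adjusted p = 0.0484 by edgeR).

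Of the other calls, miR-92a-1-5p, a passenger strand of the miR-17-92 cluster, had a log2 fold change of -0.99 (adjusted p = 0.0362 by edgeR), with groups that overlapped because FTO2D4 had 47.5 RPM with scrambled siRNA and FTO3C3 50.0 RPM with FTO siRNA. miR-215-5p, of a family enriched in kidney and gut, had -0.72 (adjusted p = 0.0289 by edgeR). miR-1180-3p had -0.67 (adjusted p = 0.0225 by edgeR) and miR-28-3p, derived from a LINE-2 repeat, had -0.62 (adjusted p = 0.0323 by edgeR), and the groups of these last 3 did not overlap.

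Of the 118 miRNAs called higher, 108 had FTO siRNA values that were all above the scrambled siRNA values, as had 26.7% of all tested miRNAs. All 118 were above their control in each clone, as were 44.0% of all tested miRNAs. miR-6505-5p had 6.87, 4.87 and 8.54 RPM with scrambled siRNA and 43.7, 73.3 and 68.9 RPM with FTO siRNA, without overlap (log2 fold change 3.15, SE 0.27, adjusted p = 0.000256 by edgeR). miR-651-5p had 31.1, 31.7 and 41.2 RPM and then 158, 261 and 254 RPM, without overlap (log2 fold change 2.67, SE 0.20, adjusted p = 0.000138 by edgeR). No other miRNA passed a log2 fold change of 2. In the untreated cells miR-6505-5p had a mean of 4.60 RPM, miR-651-5p had at most 19.9 RPM and miR-493-5p had a mean of 89.5 RPM. The group means of miR-493-5p were 47.1 and 179 RPM. The untreated scale differs, so these values do not serve as a control for the increases either. The libraries also hold reads of the transfected siRNAs, whose sequences the authors added to their reference to set such reads aside, and whether any miRNA count still contains them was not tested. The doubt touches miR-651-5p, miR-6739-3p, miR-4743-3p and miR-6506-5p (log2 fold change 1.08, adjusted p = 0.0162 by edgeR) among the increases. Each shares a run of bases with the antisense strand of an FTO siRNA as the methods list it, and other calls may do so too. Runs shared with an siRNA strand also occur in miRNAs without a call, miR-122-5p and miR-210-3p among them.

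miR-493-5p, of the imprinted DLK1-DIO3 cluster, went from 32.7, 48.7 and 59.8 RPM to 157, 208 and 173 RPM, without overlap (log2 fold change 1.96, SE 0.20, adjusted p = 0.000874 by edgeR). miR-6739-3p, a 3p arm from the mirtron-rich miR-6715 to miR-6895 series, went from 8.25, 6.09 and 7.03 RPM to 22.99, 29.5 and 27.3 RPM, without overlap (log2 fold change 1.86, SE 0.23, adjusted p = 0.00344 by edgeR). miR-5583-3p went from 15, 7 and 10 reads to 41, 46 and 56 reads, so its log2 fold change of 1.71 (SE 0.28, adjusted p = 0.011 by edgeR) rests on low counts.

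miR-221-3p, known to repress the cell cycle inhibitor p27 and the receptor KIT, had 1127, 306 and 638 RPM with scrambled siRNA and 3650, 763 and 1678 RPM with FTO siRNA. FTO2D4 was lowest in both groups and FTO1C1 highest, so the groups overlapped, while the ratio within a clone was 3.24, 2.49 and 2.63. The log2 fold change was 1.47 (SE 0.15, adjusted p = 0.000812 by edgeR). miR-5589-5p went from 254, 261 and 430.9 RPM to 756, 746 and 879 RPM, without overlap (log2 fold change 1.37, SE 0.17, adjusted p = 0.00288 by edgeR). miR-4492 had log2 fold change 1.38 (adjusted p = 0.00507 by edgeR) and was between 42.6 and 60.5 RPM before and between 104 and 188 RPM after.

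The rest of the 12 largest increases also came from low counts. The same holds for the control counts of miR-6505-5p (25, 12 and 17 reads) and miR-6739-3p (30, 15 and 14 reads). miR-520a-5p (log2 fold change 1.45, adjusted p = 0.0452 by edgeR) and miR-205-3p (1.44, adjusted p = 0.0362) had between 4 and 15 reads in each scrambled siRNA library. miR-1245b-5p (1.32, adjusted p = 0.0118) had between 21 and 27 reads there and miR-4743-3p (1.29, adjusted p = 0.0221) between 12 and 20. Of the 12 largest increases, miR-520a-5p, miR-205-3p and miR-4743-3p were not called with TMM factors, and the other 9 were. In all, 21 of the 118 had a mean under 15 RPM with scrambled siRNA. At the other end, 20 of the 118 had at least 1000 RPM over the 6 libraries. The most abundant was miR-3943, which had 15825, 20717 and 18129 RPM and then 36730, 32921 and 23537 RPM, without overlap (log2 fold change 0.75, SE 0.16, adjusted p = 0.0323 by edgeR). With TMM factors miR-3943 was not called (adjusted p = 0.212 by edgeR).

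Hairpins gave a comparison that does not depend on the library total, since both arms are counted in the same library. Of 706 hairpins with both arms tested, 63 had a called arm, and in 1 of them, miR-5089, both arms were called, both higher. For the 53 hairpins with 1 arm called higher, the other arm had a median log2 fold change of 0.26, close to the 0.29 of all tested miRNAs. For the 9 with 1 arm called lower, the other arm had a median of -0.00. The arms were chosen by their call, so the difference between a called arm and its partner is described and not tested.

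In reads of miR-22-3p over reads of miR-22-5p, the log2 ratio changed by -1.48, -1.64 and -2.13. miR-22-5p itself had 15.1, 16.6 and 13.6 RPM and then 11.2, 14.7 and 17.8 RPM, which overlap (log2 fold change -0.08, adjusted p = 0.843 by edgeR). miR-196a-5p over miR-196a-3p changed by -1.90, -1.51 and -1.15, while miR-196a-3p had a log2 fold change of -0.02 (adjusted p = 0.954 by edgeR). miR-769-5p over miR-769-3p changed by -1.14 ± 0.29 (SD, n = 3 clones), and miR-27b-3p over miR-27b-5p by -0.83 ± 0.26. In each of these hairpins the abundant guide strand went down in every clone relative to the passenger strand.

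With at least 10 reads on both arms, the called arm moved in the direction of its call relative to the other arm in all 3 clones for 33 of 40 arms called higher, with changes between -0.04 and 3.40, and for 9 of 9 called lower. The other arm of a higher call was itself above 0 in 40 of 53 hairpins. This is not particular to these arms, since the first quartile over all tested miRNAs, 0.0663, also lay above 0. miR-6505-5p over miR-6505-3p changed by 3.04, 4.08 and 3.07 on the log2 scale. With scrambled siRNA both arms were about even, at 25, 12 and 17 reads for 5p and 23, 20 and 16 reads for 3p, and with FTO siRNA they stood at 152, 254 and 267 reads for 5p and 17, 25 and 30 for 3p. miR-651-5p over miR-651-3p changed by 2.04 ± 0.60 and miR-221-3p over miR-221-5p by 1.67 ± 0.46 (SD, n = 3 clones). In the miR-30 family, whose 5p arms are the guide strands, miR-30a-3p went from 273, 336 and 332 RPM to 638, 701 and 690 RPM (log2 fold change 1.11, adjusted p = 0.00502 by edgeR). miR-30e-3p went from 868, 783 and 856 RPM to 1612, 1481 and 1546 RPM (log2 fold change 0.89, adjusted p = 0.00869 by edgeR), and neither overlapped between groups. Their guide strands miR-30a-5p and miR-30e-5p had log2 fold changes of -0.35 (adjusted p = 0.156 by edgeR) and -0.44 (adjusted p = 0.106 by edgeR). The ratio of 3p to 5p thus changed by 1.47 ± 0.19 for miR-30a and by 1.33 ± 0.35 for miR-30e.

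Such shifts were uncommon among hairpins. Of 542 hairpins with at least 10 reads on both arms in every library, 35 changed by more than 1 on the log2 scale in their ratio of 5p to 3p. The more abundant arm was a different one in the 2 groups, in all 3 clones, for 6 hairpins. The median change was 0.013, and across the 542 hairpins, which are not independent replicates, the ratios in both groups correlated at a Spearman rho of 0.974.

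**Figure D3:**
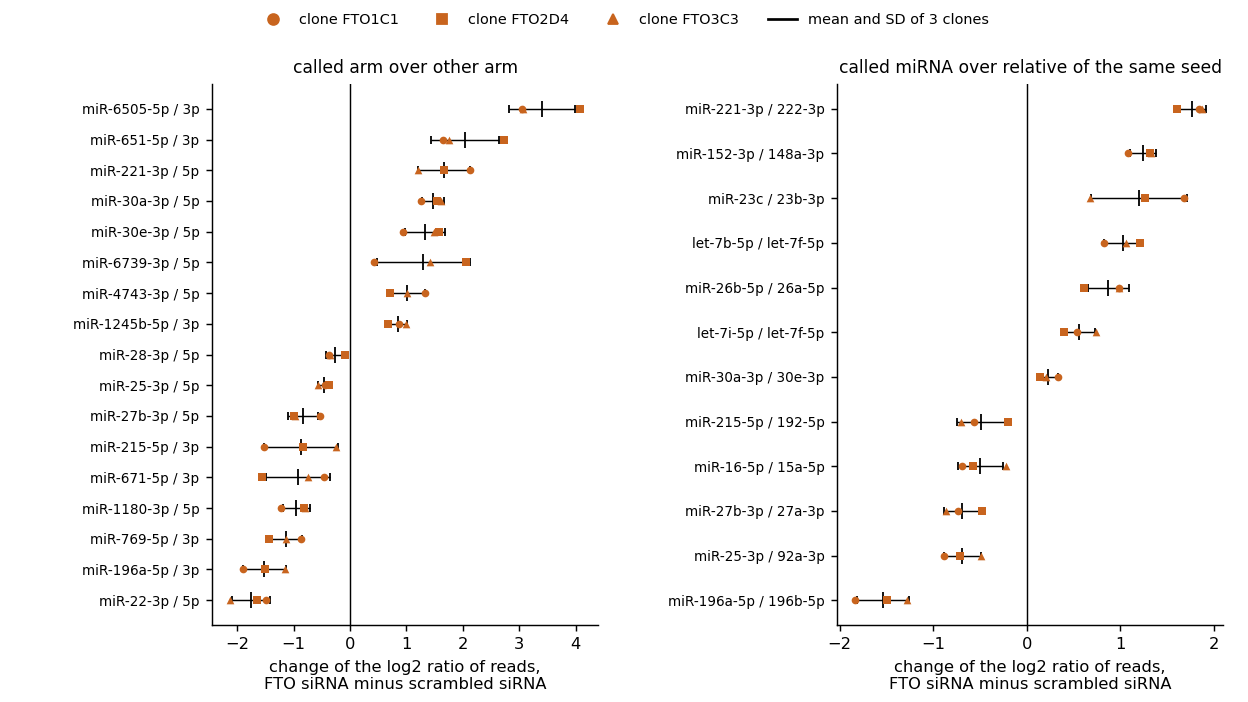
Change of a log2 ratio of reads taken within each library, FTO siRNA minus scrambled siRNA (horizontal axis), for a called arm over the other arm of its hairpin (left) and for a called miRNA over a relative with the same seed (right), with 1 symbol per clone and the mean with SD of 3 clones. These ratios do not contain the library total, and for each pair drawn the 3 clones lie on the same side of 0.

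Relatives with the same seed, which read the same target sites, often differed. The pairs below share the capitals, and each holds a called miRNA first and then its most abundant relative.
miR-221-3p: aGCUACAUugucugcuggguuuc
miR-222-3p: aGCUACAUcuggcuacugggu
miR-196a-5p: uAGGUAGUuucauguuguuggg
miR-196b-5p: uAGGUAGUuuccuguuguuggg
miR-152-3p: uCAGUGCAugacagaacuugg
miR-148a-3p: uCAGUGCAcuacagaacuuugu
miR-27b-3p: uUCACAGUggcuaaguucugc
miR-27a-3p: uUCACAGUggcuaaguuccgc
miR-23c: aUCACAUUgccagugauuaccc
miR-23b-3p: aUCACAUUgccagggauuaccac
let-7b-5p: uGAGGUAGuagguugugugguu
let-7f-5p: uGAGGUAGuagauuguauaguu
miR-30a-3p: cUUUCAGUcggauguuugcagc
miR-30e-3p: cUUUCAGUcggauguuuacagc

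miR-221-3p and miR-222-3p have their genes side by side on chromosome X and are thought to come from 1 transcript. miR-222-3p had 4659, 1645 and 3987 RPM with scrambled siRNA and 4224, 1345 and 2876 RPM with FTO siRNA, which overlap (log2 fold change -0.30, adjusted p = 0.193 by edgeR). The log2 ratio of miR-221-3p to miR-222-3p changed by 1.84, 1.61 and 1.87 in the 3 clones. miR-196b-5p, a relative of miR-196a-5p from another HOX cluster, had 4038, 4161 and 3143 RPM and then 4474, 3703 and 3175 RPM (log2 fold change -0.00, adjusted p = 0.992 by edgeR). The ratio of miR-196a-5p to miR-196b-5p changed by -1.84, -1.49 and -1.28. miR-152-3p was called higher (log2 fold change 0.94, adjusted p = 0.0183 by edgeR) and changed by 1.24 ± 0.14 (SD, n = 3 clones) relative to miR-148a-3p.

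let-7b-5p, a member of the let-7 family that represses RAS and HMGA2, went from 44.3, 61.3 and 50.7 RPM to 95.1, 140.9 and 126 RPM, without overlap (log2 fold change 1.21, SE 0.18, adjusted p = 0.0075 by edgeR). Relative to let-7f-5p, the most abundant member, it changed by 1.03 ± 0.20 and let-7i-5p by 0.56 ± 0.17 on the log2 scale. miR-26b-5p changed by 0.87 ± 0.22 relative to miR-26a-5p. On the lower side, miR-25-3p changed by -0.69 ± 0.20 relative to miR-92a-3p and miR-27b-3p by -0.69 ± 0.20 relative to miR-27a-3p. miR-16-5p changed by -0.50 ± 0.24 relative to miR-15a-5p and miR-215-5p by -0.49 ± 0.26 relative to miR-192-5p. miR-27a-3p and miR-27b-3p are alike over their first 18 bases, miR-30a-3p and miR-30e-3p over 17 and miR-23b-3p and miR-23c over 13. miR-196a-5p and miR-196b-5p differ at a single base. Part of the reads in these pairs can belong to the relative. In some pairs both members were called higher. The ratio of miR-30a-3p to miR-30e-3p changed by 0.23 ± 0.10, and that of miR-4492 to miR-762 by 0.79 ± 0.02.

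Over all seeds, 22 miRNAs called higher had a relative at 15 RPM or more, and 16 of them increased relative to it in all 3 clones, with a median log2 change of 0.63. All 5 called lower with such a relative decreased relative to it in all 3 clones, with a median of -0.69. These pairs start from a call, so the counts are a description. With 3 clones an exact sign-flip permutation test of 1 ratio cannot go below a two-sided p of 0.25.

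Neighbours in the genome, which may share a primary transcript, had few calls, as had miRNAs in general. Of the miRNAs called higher, 16 had another tested miRNA gene within 10 kb on the same strand, and for 2 of them, let-7b-5p and miR-4763-3p, which neighbour each other, a neighbour was called higher too. Of those called lower, 5 had a neighbour and 0 had a called one. Over all these neighbours, 2 of 71 (2.82%) next to a miRNA called higher were called higher, near the 4.97% of all tested miRNAs, and 0 of 21 next to one called lower were called lower, against 0.505%. miR-25-3p had 4 tested neighbours with log2 fold changes between 0.00 and 0.07. miR-27b-3p had 4 between -0.18 and 0.41, and miR-92a-1-5p had 10 between -0.11 and 0.77. miR-493-5p had 3 between -0.06 and 0.73.

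Families and clusters are described by their median log2 fold change beside the 0.29 of all tested miRNAs, and by their calls beside the background of 4.97% higher and 0.505% lower. TMM factors lowered each median by about that amount, so a median is read against 0.29 and not against 0. Several conserved families lay under it. The 14 guide strands of miR-17-92 and its paralogs, a proliferation-linked group, had a median of -0.01 with miR-25-3p as the 1 call. The 10 miRNAs of miR-10 and miR-196 in the HOX clusters had -0.02, with 1 call, miR-196a-5p. The miR-15 and miR-16 family had -0.05 over 8 members with 1 call, miR-16-5p. The miR-181 family (9 members, 0.05), the miR-130, miR-301 and miR-454 family (9, -0.08), miR-103 and miR-107 (4, -0.00) and the Drosha-independent miR-320 and miR-484 (4, -0.22) had 0 calls by edgeR. At an unadjusted p under 0.05 they had 2, 1, 0 and 0 members, with TMM factors 1, 0, 0 and 0 calls, and by DESeq2 2, 0, 0 and 1. The members of highest level in these 4 were miR-181a-5p (log2 fold change 0.06), miR-301a-3p (0.31), miR-103a-3p (-0.19) and miR-484 (-0.08), whose groups all overlapped.

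Other families had calls in which 1 or 2 members stood apart. The miR-30 family had a median of -0.02 over 11 arms, with miR-30a-3p and miR-30e-3p called higher. The miR-23, miR-24 and miR-27 clusters had 0.03 over 12, with miR-23c called higher (log2 fold change 1.24, adjusted p = 0.00696 by edgeR) and miR-27b-3p lower. miR-221 and miR-222 had -0.225 over 4 arms with 1 called higher. The 9 let-7 guide strands had 0.27, with let-7b-5p and let-7i-5p (0.74, adjusted p = 0.0348) called higher, while let-7e-5p had -0.05 (adjusted p = 0.878) and let-7f-5p 0.18 (adjusted p = 0.391). The miR-26 and miR-29 families had 0.24 over 12, with miR-26b-5p called higher (0.68, adjusted p = 0.0347). The kidney-enriched miR-192, miR-194, miR-215 and miR-204 had 0.27 over 10, with miR-215-5p lower and miR-192-5p, the most abundant, at -0.24. The miR-200 and miR-141 family of epithelia had 0.38 over 8, with miR-200b-5p called higher (0.93, adjusted p = 0.0323) and overlapping groups. With TMM factors miR-30a-3p, miR-23c, miR-221-3p and let-7b-5p were still called higher and miR-27b-3p and miR-215-5p lower, while miR-30e-3p (adjusted p = 0.0597), let-7i-5p (0.253), miR-26b-5p (0.294) and miR-200b-5p (0.108) were not called.

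**Figure D4:**
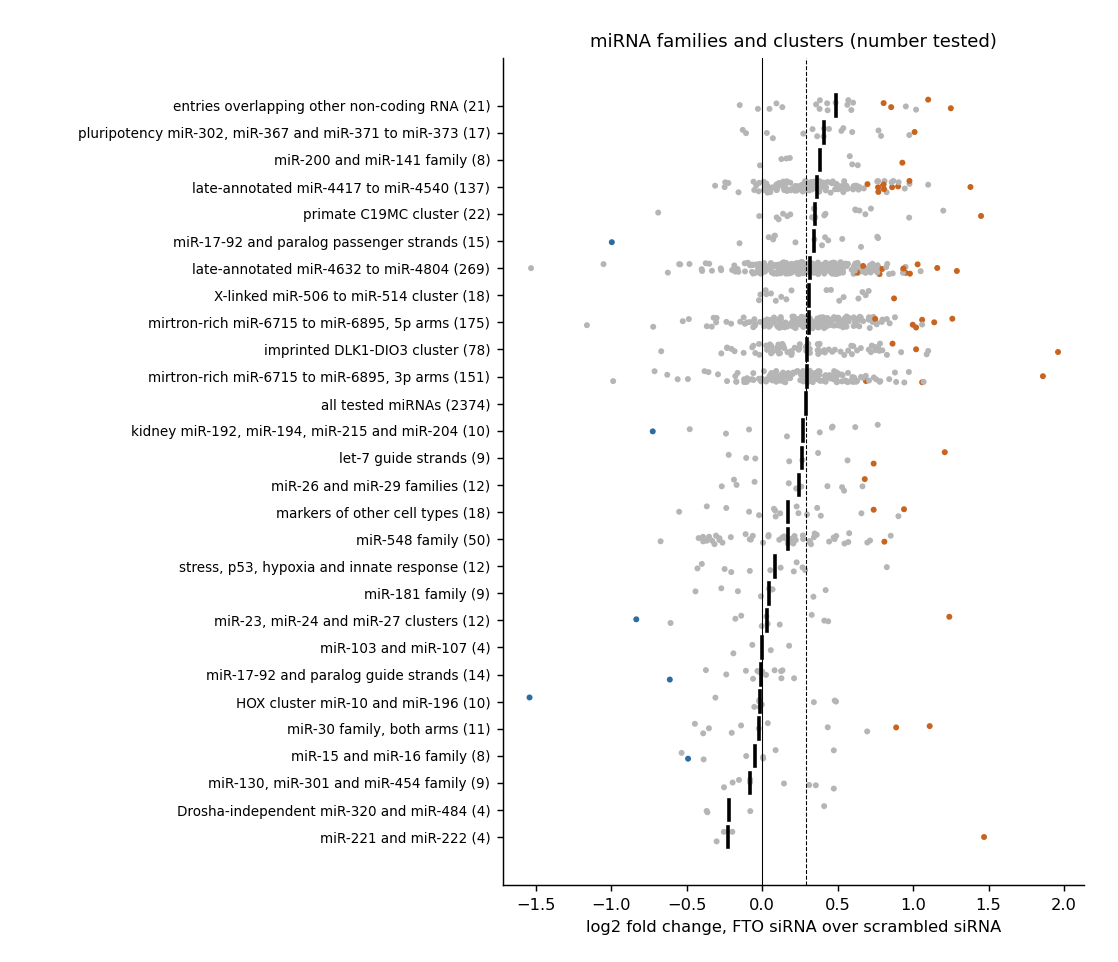
Log2 fold changes of the tested members of each family or cluster (1 point per miRNA, coloured orange where called higher and blue where called lower) with the median as a black bar, the lists ordered by their median and the dashed line at the 0.29 of all tested miRNAs, whose own points are not drawn. The lowest median is that of miR-221 and miR-222 at -0.225 and the highest that of entries overlapping other non-coding RNA at 0.49, and the let-7 guide strands at 0.27 lie beside the dashed line.

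Tissue-restricted clusters, the miR-548 family and the miR-17-92 passenger strands had medians nearer to that of all tested miRNAs. Their median levels lay between 6.77 and 24.7 RPM, against 17 RPM for all tested miRNAs. Single members were abundant, with miR-1185-1-3p of the DLK1-DIO3 cluster at 4641 RPM. The DLK1-DIO3 cluster had a median of 0.30 over 78 members with 3 called higher, miR-493-5p, miR-127-5p (1.02, adjusted p = 0.0346 by edgeR) and miR-485-5p (0.86, adjusted p = 0.017). The primate C19MC cluster had 0.35 over 22 with miR-520a-5p called higher, and the X-linked miR-506 to miR-514 cluster 0.31 over 18 with miR-506-3p called higher (0.87, adjusted p = 0.0348). The pluripotency-linked miR-302, miR-367 and miR-371 to miR-373 had 0.41 over 17 with miR-302a-5p called higher (1.01, adjusted p = 0.0201). The transposon-derived miR-548 family had 0.17 over 50 with miR-548f-3p called higher (0.81, adjusted p = 0.0436). The 15 passenger strands of miR-17-92 and its paralogs had 0.35, against -0.01 for their guide strands, with miR-92a-1-5p called lower. With TMM factors miR-493-5p and miR-92a-1-5p kept their calls, the other calls of these clusters were lost, and the miR-548 family had 0 members called higher and 2 lower.

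Among late-annotated series, miR-4417 to miR-4540 had a median of 0.36 with 10 of 137 (7.30%) called higher, among them miR-4492 and miR-4502 (0.98, adjusted p = 0.00825 by edgeR). miR-4632 to miR-4804 had 0.32 with 12 of 269 (4.46%) called higher. The 5p arms of miR-6715 to miR-6895, many of which are spliced out of introns without Drosha, had 0.31 with 6 of 175 (3.43%) called higher. Their 3p arms had 0.30 with 3 of 151 (1.99%) called higher. With TMM factors the calls in these 4 series fell to 1, 0, 2 and 1 higher, and miR-4502 was not called. Entries that overlap other non-coding RNA had 0.49 with 4 of 21 called higher. These were miR-1246, which resembles U2 snRNA (1.25, adjusted p = 0.00507 by edgeR), miR-663a, which overlaps ribosomal RNA sequence (1.10, adjusted p = 0.0175), miR-3607-5p, which lies in a snoRNA (0.85, adjusted p = 0.0347), and miR-4485, which matches mitochondrial ribosomal RNA (0.80, adjusted p = 0.0453). With TMM factors miR-1246 and miR-663a were still called and the other two were not. The stress, p53, hypoxia and innate response miRNAs, 12 with a median of 0.09, had 0 calls by edgeR, and their most abundant member, miR-21-5p, went from 4159, 9990 and 4408 RPM to 4021, 6565 and 2853 RPM (log2 fold change -0.43, adjusted p = 0.12). At an unadjusted p under 0.05 there were 2 of the 12, with TMM factors 0 were called, and DESeq2 called 2, miR-21-5p (adjusted p = 0.0047) and miR-210-3p (adjusted p = 0.0307), and gave no adjusted p for 7.

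The HEK293 label was checked against miRNAs known for this line. miR-10a-5p and miR-10b-5p together took between 30.9% and 41.9% of the reads of every library, and miR-92a-3p had at least 29406 RPM. Neither miR-10a-5p (log2 fold change -0.02, adjusted p = 0.948 by edgeR) nor miR-10b-5p (-0.05, adjusted p = 0.833) was called. miR-92a-3p, miR-17-5p (mean 1352 RPM) and miR-20a-5p (mean 1069 RPM) were not called either (adjusted p = 0.694, 0.807 and 0.925 by edgeR). miR-196a-5p, also chosen as a marker of this line, was called lower (-1.54, adjusted p = 0.000704 by edgeR). Markers of other cell types, 19 entries, summed to 0.285%, 0.369% and 0.437% of the control reads and to 0.364%, 0.334% and 0.453% after FTO siRNA, which overlap. The most abundant of the 19, miR-126-5p of endothelium, had a mean of 2221 RPM, more than miR-17-5p or miR-20a-5p, and was not called. Such markers were thus not all near absent. Of the 18 tested, miR-144-3p of red cells (0.94, adjusted p = 0.0323 by edgeR) and miR-499a-5p of heart (0.74, adjusted p = 0.0362) were called higher, from means of 21.0 and 122 RPM, and 0 were called lower. With TMM factors both lost the call, 0 were called higher, and miR-9-5p (adjusted p = 0.0212) and miR-375 (adjusted p = 0.0469) were called lower. None of the 19 was at 0 in both groups, and their part in the results was not tested.

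miRBase numbers rise with the date of annotation. miRNAs numbered below 1000, with let-7, had a median log2 fold change of 0.20 with 38 of 821 called higher and 11 lower, while 80 of the 118 called higher (67.8%) and 1 of the 12 called lower, miR-1180-3p, had numbers of 1000 and above, as had 65.4% of all tested miRNAs. The share called higher was thus 5.15% of the later numbers and 4.63% of the earlier ones. The medians lay further apart among abundant miRNAs. At 100 RPM and above, the 198 with a number below 1000 had a median of -0.00, with 20 called higher and 8 lower. The 165 with later numbers had a median of 0.49, with 45 called higher and 1 lower. With TMM factors these calls became 5 higher and 22 lower for the earlier numbers and 4 higher and 2 lower for the later ones. Between 15 and 100 RPM the medians were 0.24 and 0.31. The share of all reads that fell on numbers of 1000 and above was 16.3%, 18.9% and 23.5% in the controls and 25.1%, 26.4% and 22.7% after FTO siRNA. It was higher after FTO siRNA in FTO1C1 and FTO2D4 and lower in FTO3C3, so the clones did not share a direction.

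**Figure D5:**
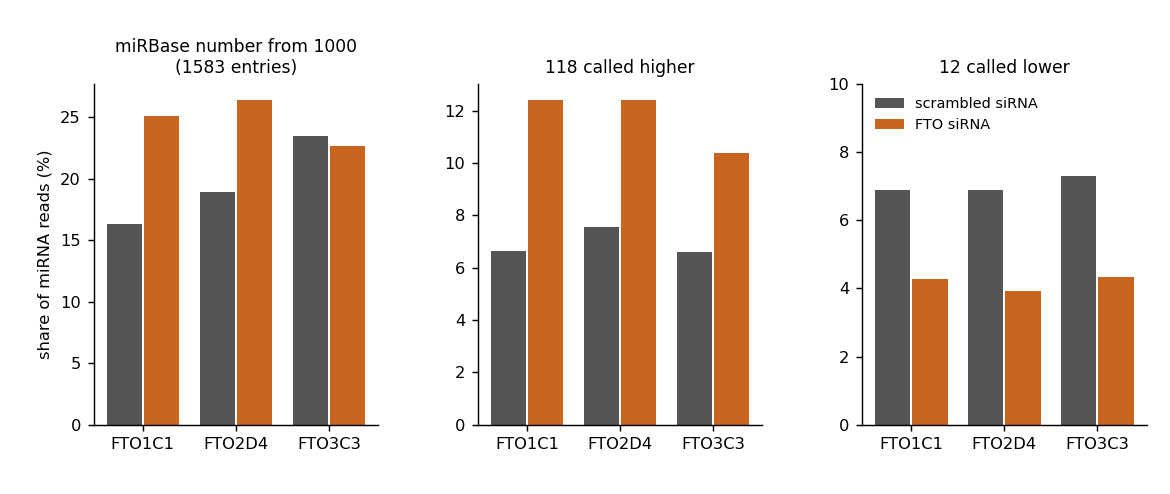
Share of all miRNA reads of a library (vertical axis, in percent, from 0) that fell on entries with a miRBase number of 1000 and above, on the 118 miRNAs called higher and on the 12 called lower, with 1 bar per library. The first share rises in FTO1C1 and FTO2D4 but not in FTO3C3, where it goes from 23.5% to 22.7%.

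Entries of 16 to 19 bases had 19 of 176 (10.8%) called higher, and those of 22 bases 36 of 941 (3.83%). Entries without an arm in their name had 57 of 774 (7.36%) called higher, against 34 of 814 among 5p arms and 27 of 786 among 3p arms. With TMM factors 3 of 176 and 11 of 941 were called higher by length, and 6, 10 and 5 were called higher among entries without an arm, 5p arms and 3p arms. GC content and log2 fold change correlated at a Spearman rho of 0.05 across 2092 miRNAs, and the share of A at -0.04. The letters AAC or GAC, the core within which m6A is usually found, were searched on the mature strand only. They occurred in 31 of the 105 called higher (29.5%), in 4 of the 12 called lower (33.3%) and in 791 of all 2092 tested miRNAs with a sequence (37.8%). A match is a description of the letters and not a modified site.

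The clones differed in how far their miRNAs moved. Median log2 ratios were 0.37 for FTO1C1, 0.41 for FTO2D4 and 0.12 for FTO3C3, and the ratio was above 1 for 79.3%, 79.9% and 59.3% of the tested miRNAs. Among the 1305 miRNAs with a mean of at least 15 RPM, 77, 102 and 36 were over 2-fold higher and 10, 6 and 59 were under 0.5 of the control. The library of FTO3C3 with scrambled siRNA was the shallowest of the 6. The log2 ratios of these 1305 miRNAs correlated between clones at a Spearman rho of 0.413 (FTO1C1 and FTO2D4), 0.418 (FTO1C1 and FTO3C3) and 0.332 (FTO2D4 and FTO3C3), which describes miRNAs and not replicates. By the rule of a mean ratio over 2 with at least 15 RPM in the 3 FTO siRNA libraries, 35 miRNAs were increased, and by the inverse rule 4 were decreased, namely miR-22-3p, miR-7-5p, miR-196a-5p and miR-769-5p.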

How the data were processed

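Per the labels and the methods of the study, adapters were removed from the reads with cutadapt, reads of 16 to 28 bp were kept, and they were matched to the mature miRNAs of miRBase release 20. The authors deposited raw counts per mature miRNA, with no normalization, and entries of identical sequence are joined. The aligned genome build was not given in the sources used here. Matches had to cover at least 17 bases in exact stretches of at least 7. The counts of the 6 libraries were divided by their column total (RPM). The test was edgeR's quasi-likelihood test (glmQLFit, glmQLFTest, with the totals as library sizes, the clone as a block and filterByExpr by group at a count of 10) with Benjamini-Hochberg adjustment at 0.05 over all miRNAs tested.

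Both libraries of a clone come from the same cells, and their deviations from the group means correlated at 0.225, 0.137 and 0.205 over 2103 miRNAs, so the clone pairs them. Counts of any 2 libraries of a group differed by more than sampling allows (chi-square over its degrees of freedom 34.1 to 84.1). On simulated counts of this comparison (2418 miRNAs, 200 changed, 5 simulations), 6.2%, 58.8% and 93.2% of changes of 1.5, 2 and 3-fold were recovered, with 16.9%, 3.92% and 2.81% false calls. The simulation drew every library from the mean control levels, with as many increases as decreases. It held no differences in level between clones and no overall shift, so its shares of false calls need not hold for the real calls.

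The named miRNAs are the 12 largest changes in each direction among calls of the same direction in all 3 clones, the other arms of their hairpins, the 8 most abundant miRNAs, the most abundant member of each list, up to 4 called members per list, and let-7b-5p, let-7e-5p, miR-7-5p and miR-22-3p, which the study measured by qRT-PCR. By qRT-PCR the paper reports a decrease of miR-22-3p, of miR-7-5p and of let-7e, and did not reproduce a rise of let-7b. In the counts used here let-7e-5p was not called (log2 fold change -0.05, adjusted p = 0.878 by edgeR), and let-7b-5p was called higher. Other miRNAs were named after their values were seen, as relatives of a called miRNA. The 27 lists are families, genomic clusters, name series and markers. The members and lists were chosen with earlier results of these data known. Ratios within a library and neighbours were chosen after seeing the data. Alternatives were TMM factors, totals without miR-10a-5p, DESeq2, other filters, no clone block and each clone left out, and TMM factors with a clone left out was added after seeing the data. The tools were edgeR 4.0.16 and DESeq2 1.42.0 under R 4.3.3, and pandas 2.3.3, matplotlib 3.10.9 and numpy 2.4.6 under Python 3.11.15. Sequences are from RefSeq on GRCh38.p14.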

Additional observations from a re-analysis of the deposited data

How the results depend on the processing

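With TMM factors the counts of calls were 21 higher and 34 lower, and with DESeq2 33 and 61. A filter at 15 RPM gave 184 and 19, and totals without miR-10a-5p gave 169 and 21. With no filter both counts stayed within 1.5 times of 118 and 12. Without the clone block, so that the libraries were not paired, there were 37 and 4. Leaving out a clone gave 0 to 191 higher and 0 to 39 lower, both lowest without FTO1C1. TMM factors with FTO1C1, FTO2D4 or FTO3C3 left out, chosen after seeing the data, gave 0, 14 and 11 higher and 0, 40 and 20 lower. DESeq2 gave no adjusted p for 25 of the 118 and 1 of the 12. By the ratio rule, 35 miRNAs up became 9 with TMM factors, 13 at 100 RPM, 12 where all 3 ratios had to pass, and 45 to 56 without a clone. The 4 down became 12, 3, 2 and 3 to 17. The cause of these moves was not tested.

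Of 79 named miRNAs, the 48 called ones kept their direction in every setting run, and uncalled ones changed sign as follows. With TMM factors and DESeq2 the log2 fold change was -0.25 and -0.26 for miR-23b-3p, -0.11 and -0.11 for let-7f-5p, -0.21 and -0.21 for miR-92a-3p, -0.28 and -0.29 for miR-15a-5p and -0.23 and -0.23 for miR-181a-5p. It was -0.20 for miR-769-3p with TMM factors, -0.01 for miR-15a-5p with totals without miR-10a-5p and 0.00 for miR-196b-5p without the block. Leaving out a clone gave ranges of -0.19 to 0.11 for miR-10a-5p, -0.20 to 0.10 for miR-10b-5p, -0.11 to 0.12 for miR-15a-5p, -0.30 to 0.10 for miR-22-5p, -0.18 to 0.30 for miR-23b-3p, -0.26 to 0.00 for miR-27a-3p, -0.05 to 0.05 for miR-27b-5p, -0.03 to 0.11 for miR-181a-5p, -0.13 to 0.05 for miR-196a-3p, -0.08 to 0.08 for miR-196b-5p, -0.21 to 0.00 for miR-484 and -0.16 to 0.07 for let-7e-5p. The ranges cross or reach 0. Of the 27 list medians, 7 were under 0 in the fit reported and 16 with TMM factors. With 3 clones, 2-fold changes were recovered in 58.8% of simulated cases, so smaller changes may not have been detectable.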
